A study of Mus musculus with 6 samples.

Results

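The stem cell transcription regulators described here are 8 genes, Mllt3, Meis1, Mecom, Hlf, Lmo2, Etv6, Gata2 and Erg, taken as every probe set annotated to exactly 1 of these symbols. They are 8 of the 10366 genes with a single-symbol probe set and have 9 probe sets, 2 of them for Mecom. All 9 were among the 14610 probe sets tested, of 20220 in the deposited table. Each value is the intensity of 1 probe set on 1 whole-transcript array, put on a log2 scale, so a difference of 1 is a doubling. The arrays labelled Zeb2-KO came from Zeb2Δ/ΔMx1-Cre mice, in which floxed Zeb2 alleles were to be deleted by Mx1-Cre, a recombinase driven by an interferon-inducible promoter and therefore active beyond blood cells. The WT arrays came from C57Bl/6 WT mice with no Cre stated, so effects of Cre and of the deletion cannot be told apart. Mice of both groups were given pIC, which induces interferon, when 6 weeks old and were killed 8 weeks later, at 14 weeks. LKS-Slam cells, a marrow fraction enriched for hematopoietic stem cells, were sorted, and 3 marrow samples per group were each run on 1 array.

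These genes encode nuclear proteins on which blood stem cells depend for self-renewal. Gata2 binds GATA motifs, Erg and Etv6 bind ETS motifs, and Lmo2 joins GATA and basic helix-loop-helix proteins without touching DNA. Meis1 binds DNA with PBX and HOX proteins, Mecom and Hlf mark the most primitive cells, and Mllt3 reads acylated histones and recruits elongation factors. Several of them, Gata2, Meis1, Erg and Etv6 included, also act in megakaryocytes.

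Zeb proteins are repressors that bind E-boxes of the form CACCTG, so the promoters of these genes were searched for it on both strands, with AGATAA and TGATAA for GATA factors and CCGGAA for ETS factors. RefSeq promoter windows (GRCm38.p6, 250 bases before to 50 after a start) were found for 7 of the 8 genes, 12 windows in all, with no entry for Lmo2. CACCTG stood in 2 of the 12, the Hlf window and 1 Erg window, and in 20.2% of all 32851 windows. AGATAA and TGATAA each stood in 1 of the 12 (11.2% and 9.05% of all windows) and CCGGAA in 2 (14.9%), those of Meis1 and Hlf. Neither Mllt3 window held any of these motifs. The 250 bases before the start are shown for Hlf, for its E-box, for Mecom, the member closest to Hlf across arrays, and for Mllt3, the member with the smallest p. Capitals mark the E-box and GATA matches, and a match is a description of letters and not of binding.
Hlf, chr11:90390918-90391167, minus strand: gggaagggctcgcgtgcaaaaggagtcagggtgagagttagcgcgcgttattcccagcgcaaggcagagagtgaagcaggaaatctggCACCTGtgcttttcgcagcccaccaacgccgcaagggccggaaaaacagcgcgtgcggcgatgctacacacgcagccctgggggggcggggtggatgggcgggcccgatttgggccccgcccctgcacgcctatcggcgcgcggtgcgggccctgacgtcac
Mecom, chr3:30509760-30510009, minus strand: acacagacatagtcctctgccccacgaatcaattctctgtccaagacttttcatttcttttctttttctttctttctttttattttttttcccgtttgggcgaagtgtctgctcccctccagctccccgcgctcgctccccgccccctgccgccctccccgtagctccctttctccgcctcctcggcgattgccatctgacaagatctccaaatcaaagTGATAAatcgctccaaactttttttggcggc
Mllt3, chr4:88033408-88033657, minus strand: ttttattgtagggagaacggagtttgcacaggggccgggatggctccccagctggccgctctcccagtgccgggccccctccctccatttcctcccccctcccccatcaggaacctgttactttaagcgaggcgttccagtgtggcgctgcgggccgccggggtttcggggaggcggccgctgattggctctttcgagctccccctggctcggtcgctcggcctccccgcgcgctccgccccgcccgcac
In Hlf the CACCTG begins 162 bases before the start, and in Mecom the TGATAA begins 31 bases before it.

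The arrays were not alike in ways that touch these genes. WT replicate 1 correlated least with the other arrays (mean r of 0.841 over all tested probe sets, against 0.886 to 0.908 for the rest), so each member's difference is also given without it, with the partner and marker genes below where it mattered. Zeb2, the targeted gene, had values of 7.79, 9.13 and 8.96 in the 3 arrays labelled Zeb2-KO, against 6.58, 7.51 and 7.34 in WT, higher where the label says deleted. The removed part of the gene is not given in the sources used here and this probe set may lie outside it, and every direction below rests on the labels. Signal of the Y-linked gene Eif2s3y was raised in the replicate 1 arrays of both groups, at 6.46 for Zeb2-KO and 5.20 for WT, against 3.10 to 3.38 in the other arrays. The interquartile range of log2 values ran from 1.83 to 2.40 in the arrays labelled Zeb2-KO and from 1.59 to 2.03 in WT. Of the gate genes, Kit, the stem cell factor receptor, was brighter than 96.5% of tested probe sets, Slamf1 (CD150) than 80.7% and Cd48, which stem cells usually lack, than 60.1%.

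Mllt3 was the member that separated the groups most clearly. Its log2 intensity was 9.59, 9.51 and 9.49 in the arrays labelled Zeb2-KO, against 8.50, 8.69 and 8.82 in WT. The 3 arrays labelled Zeb2-KO lay close to each other, and all of them lay above every WT array. Means were 9.53 ± 0.054 for Zeb2-KO and 8.67 ± 0.16 for WT (SD, n = 3 each). The difference of 0.86 (SE 0.27), or 1.82-fold with a 95% interval of 1.20 to 2.74, had an unadjusted p of 0.00856 in limma. It did not pass after adjustment over all probe sets (adjusted p = 0.606), where 2 probe sets, 0.0137% of those tested, passed and none of the 9 described here did. Mllt3 was the only 1 of the 9 with an unadjusted p under 0.05, a limit passed by 7.02% of all tested probe sets and, with a higher value, by 5.69%. Without WT replicate 1 the difference was 0.78, and without both arrays with raised Y-linked signal it was 0.74. Over 17 fits the Mllt3 difference kept its sign and an unadjusted p under 0.05, while adjusted p ran from 0.0398, with array weights, to 0.978.

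**Figure D1:**
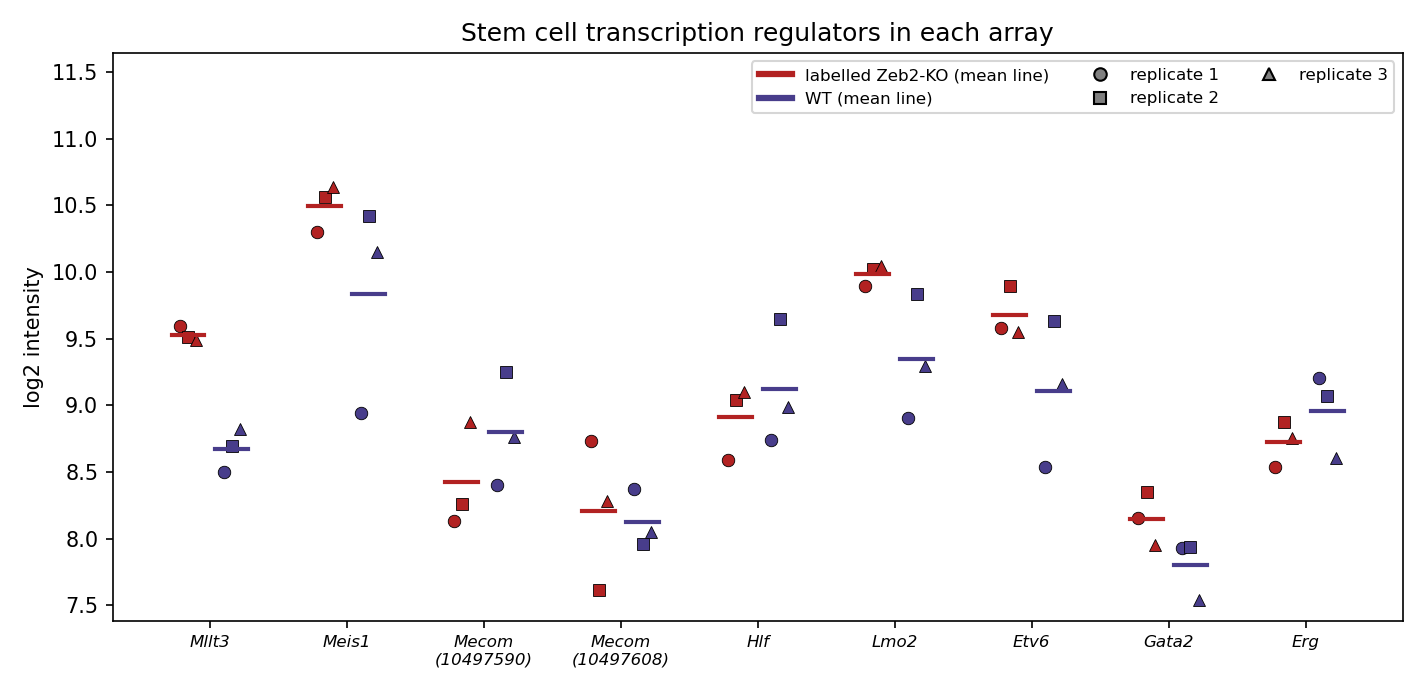
Log2 intensity (vertical axis) of the 9 probe sets of the 8 genes in each array, with the arrays labelled Zeb2-KO in red at the left of each gene and WT in dark blue at the right. Symbols give the replicate and lines the group means, and levels of different probe sets are not comparable. In Mllt3 the groups stand apart, 9.49 to 9.59 against 8.50 to 8.82, and in Meis1, Lmo2 and Etv6 WT replicate 1 is the lowest array.

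Meis1, Lmo2 and Etv6 lay higher by 1.48- to 1.58-fold, and each difference was smaller without WT replicate 1. Meis1, the homeodomain partner of HOX proteins, stood at 10.30, 10.56 and 10.64 in the arrays labelled Zeb2-KO, against 8.94, 10.42 and 10.15 in WT. Only WT replicate 1 lay far from the rest, and the groups overlapped. The Meis1 difference was 0.66 (SE 0.39, limma adjusted p = 0.673), and it was 0.22 without WT replicate 1.

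Lmo2, the bridging protein of the GATA and TAL1 complex, stood at 9.90, 10.02 and 10.04 in the arrays labelled Zeb2-KO, against 8.91, 9.83 and 9.29 in WT. The groups did not overlap, although WT replicate 2 came close to the arrays labelled Zeb2-KO. The Lmo2 difference was 0.64 (SE 0.31, limma adjusted p = 0.673), and it was 0.42 without WT replicate 1 and 0.89 without WT replicate 2.

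Etv6, an ETS repressor needed for stem cell survival in adult marrow, stood at 9.58, 9.90 and 9.55 in the arrays labelled Zeb2-KO, against 8.53, 9.63 and 9.16 in WT. WT replicate 2 fell among the arrays labelled Zeb2-KO, and WT replicate 1 was more than a log2 unit below all 3 of them. The difference was 0.57 (SE 0.33, limma adjusted p = 0.673), and 0.28 without WT replicate 1. When array spread (the interquartile range) entered the fit as a covariate, Meis1 differed by 0.19, Lmo2 by 0.34 and Etv6 by 0.16, whereas Mllt3 differed by 0.84.

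Gata2, the zinc finger factor of stem cells, mast cells and early megakaryocyte cells, lay slightly higher. It stood at 8.15, 8.35 and 7.95 in the arrays labelled Zeb2-KO, against 7.93, 7.94 and 7.54 in WT. The groups met without overlapping, since the lowest array labelled Zeb2-KO and the highest WT arrays nearly touched. Its difference of 0.35 (SE 0.28, limma adjusted p = 0.673) was 0.41 without WT replicate 1 and 0.12 with quantile normalization. Mllt3, Lmo2 and Gata2 were thus 3 of 9 probe sets whose groups did not overlap with the arrays labelled Zeb2-KO above WT, a pattern shared by 6.9% of all tested probe sets. Among the 2606 probe sets at least as bright as Gata2, the dimmest member, that share was 11.3%.

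Mecom, Hlf and Erg lay lower or near WT, and none of them separated the groups. The brighter Mecom probe set (10497590) stood at 8.13, 8.26 and 8.87 in the arrays labelled Zeb2-KO, against 8.40, 9.25 and 8.76 in WT. The groups overlapped, and WT replicate 2 was the highest array. Its difference was -0.38 (SE 0.33, limma adjusted p = 0.674), and -0.58 without WT replicate 1.

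The other Mecom probe set (10497608) stood at 8.73, 7.62 and 8.28 in the arrays labelled Zeb2-KO, against 8.37, 7.96 and 8.05 in WT. Zeb2-KO replicate 1 was the highest array here and the lowest in the brighter probe set. The difference was 0.083 (SE 0.34, limma adjusted p = 0.898), 0.21 without WT replicate 1 and -0.18 without Zeb2-KO replicate 1. The annotation gives these probe sets 7 and 3 transcript accessions, of which they share 1, so they may read different transcripts of the Mecom locus. Where their probes lie was not examined. With the array spread as a covariate they lay on opposite sides of 0, at -0.65 and 0.59.

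Hlf, a leucine zipper factor largely confined to stem cells within blood, stood at 8.59, 9.04 and 9.10 in the arrays labelled Zeb2-KO, against 8.74, 9.65 and 8.99 in WT. WT replicate 2 was again the highest array and the groups overlapped. The Hlf difference was -0.21 (SE 0.32, limma adjusted p = 0.746), -0.41 without WT replicate 1 and 0.049 without WT replicate 2.

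Erg, an ETS activator required for stem cell maintenance, stood at 8.54, 8.88 and 8.76 in the arrays labelled Zeb2-KO, against 9.20, 9.07 and 8.61 in WT. Here WT replicate 1, the lowest array for 4 other members, was the highest. The difference was -0.24 (SE 0.29, limma adjusted p = 0.708), and -0.11 without WT replicate 1. A p above the threshold does not show equal levels: the 95% intervals ran from 0.46- to 1.28-fold for Mecom (10497590), 0.53- to 1.42-fold for Hlf and 0.55- to 1.32-fold for Erg.

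**Figure D2:**
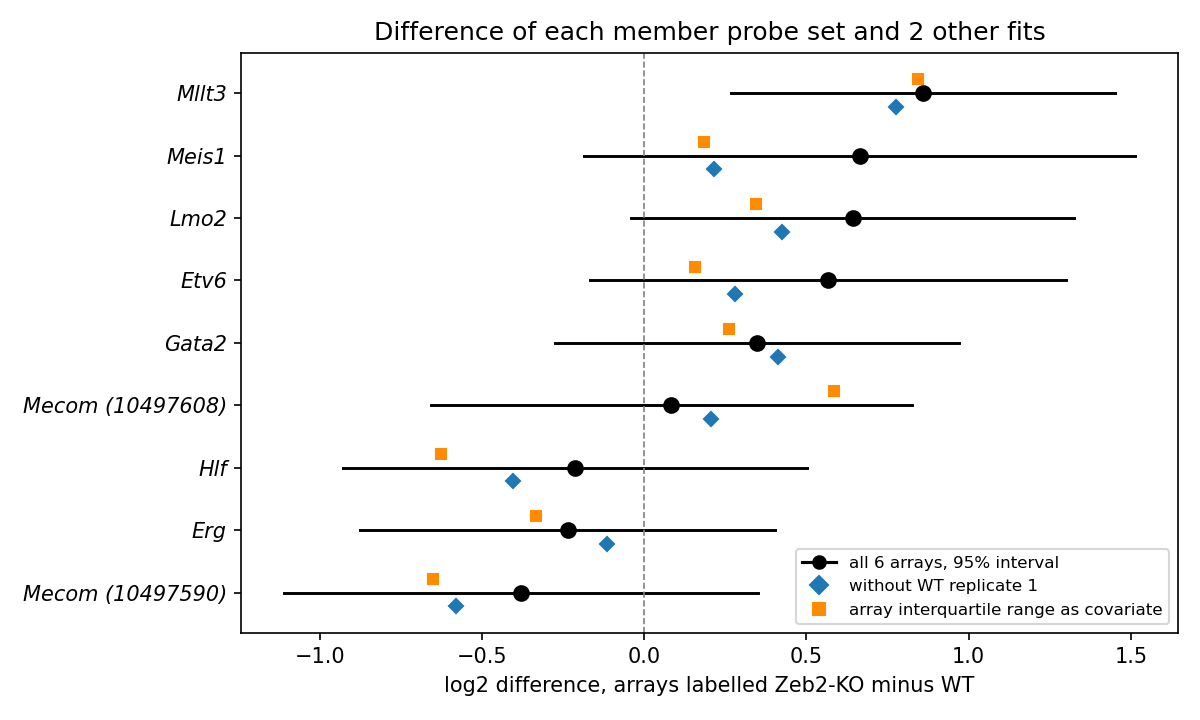
Log2 difference, arrays labelled Zeb2-KO minus WT (horizontal axis), for each of the 9 probe sets, with the 95% interval from limma as a black line. Blue diamonds leave out WT replicate 1 and orange squares add array spread (interquartile range) as a covariate. The Mllt3 interval alone lies above 0, and Meis1 lies at 0.66 over all 6 arrays but at 0.22 without WT replicate 1.

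With 1 probe set per gene, the brighter for Mecom, 5 of the 8 genes lay higher and 3 lower, with a median difference of 0.46. Over all tested probe sets the median was -0.089 and 44.6% lay higher. The 9 probe sets are bright, at percentiles 82.2 to 97.1 of mean level, and bright probe sets lay higher in general in the arrays labelled Zeb2-KO. Among the 2606 probe sets at least as bright as the dimmest member the median was 0.27 and 74.6% lay higher, so the share of genes lying higher here is no larger than at that brightness. Without WT replicate 1 the median over the 8 genes was 0.25. The SD among WT arrays exceeded that among arrays labelled Zeb2-KO in 8 of the 9 probe sets, with the dimmer Mecom probe set as the exception. Of all tested probe sets 50.7% had the larger SD in WT. The share among probe sets of like brightness was not examined, so this is not shown to be particular to these genes.

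The regulators did not move as 1 block across arrays. Likeness was measured as the root mean square distance between log2 profiles, each centred on its own mean, over the 6 arrays. Of the 36 pairs of probe sets, Lmo2 and Etv6 were closest, at 0.133 log2 units, followed by Mecom (10497590) and Hlf at 0.188 and by Meis1 and Etv6 at 0.22. Meis1 and the dimmer Mecom probe set were farthest apart, at 0.761, and the 2 Mecom probe sets lay 0.593 from each other. Mllt3 lay closest to Lmo2, at 0.27. WT replicate 1 was the lowest array for Mllt3, Meis1, Lmo2 and Etv6, Zeb2-KO replicate 1 for Mecom (10497590), Hlf and Erg, and WT replicate 3 for Gata2. Without WT replicate 1, Etv6 and Gata2 were closest (0.09), ahead of Lmo2 and Etv6 (0.138). These distances share the arrays' overall spread and are a description.

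**Figure D3:**
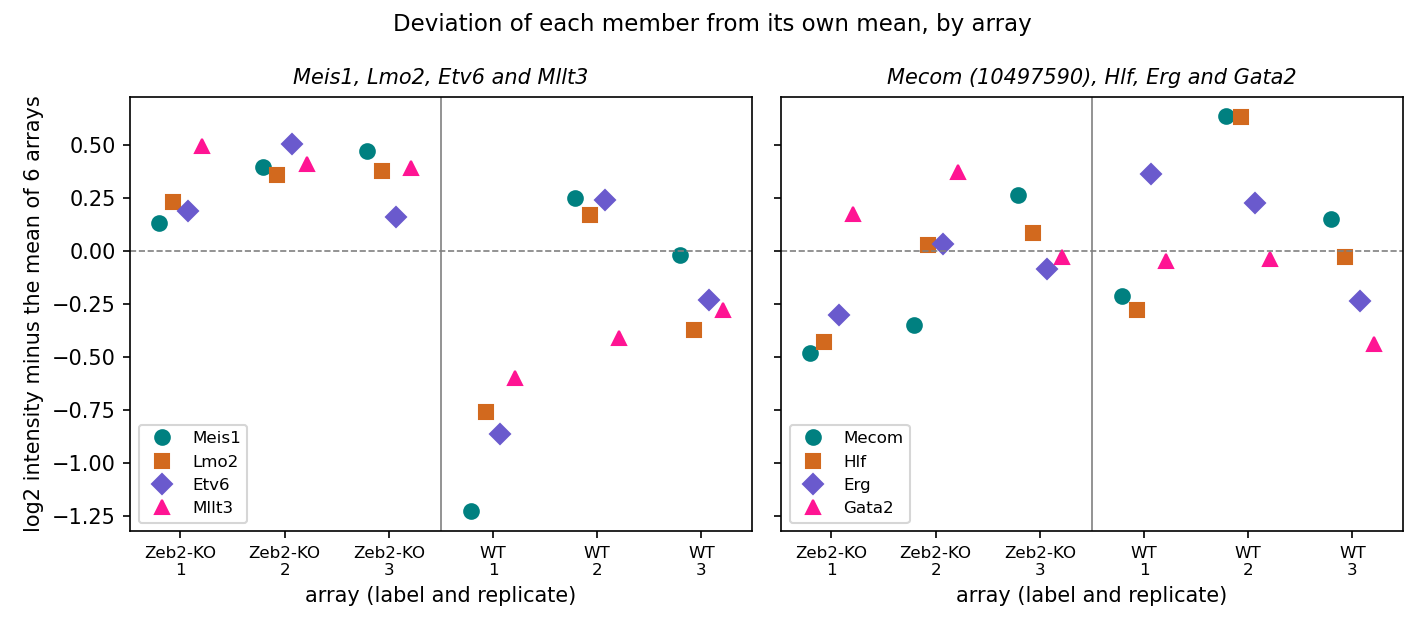
Deviation of each gene's log2 intensity from its mean over the 6 arrays (vertical axis), by array, with the 3 arrays labelled Zeb2-KO left of the line and WT right of it. Meis1, Lmo2, Etv6 and Mllt3 (left panel) share their lowest value in WT replicate 1, and Mecom and Hlf (right panel) share their highest in WT replicate 2.

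Other genes followed some of these profiles closely over the 6 arrays, although without WT replicate 1 just 2 of the 18 neighbours named here stayed among the 2 nearest of their member. Among 5790 other probe sets (5789 for Mecom) with 1 symbol and at least median brightness, Prep, a prolyl endopeptidase, lay nearest to Gata2 (0.0379 log2 units) and Pole, the catalytic subunit of DNA polymerase epsilon, nearest to Lmo2 (0.0478). Fbrs and Lrba lay nearest to Etv6 (0.0607 and 0.0704), and Utrn, the cytoskeletal protein utrophin, and Xpo4, an exportin, nearest to Mllt3 (0.0842 and 0.0927). Phka2 and Oga, the enzyme that removes O-linked N-acetylglucosamine, lay nearest to Meis1 (0.0897 and 0.0956). Maf1, a repressor of RNA polymerase III, and Git2 lay nearest to Erg (0.089 and 0.0915), and Lonrf3 and Tmem86b nearest to Hlf (0.0961 and 0.103). Lgalsl lay 0.103 from the brighter Mecom probe set and Gm4814 lay 0.113 from the dimmer one. The second neighbours not yet named were Nhlrc3 for Lmo2, Wdr83 for Gata2, and 1110051M20Rik and Ip6k1 for the brighter and dimmer Mecom probe sets.

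Known partners of these proteins were measured for 50 of 93 listed genes in 7 lists. None passed over all probe sets, and 34 lay higher and 16 lower. Of all tested probe sets 44.6% lay higher, and of the 2606 at least as bright as Gata2 74.6% did. An unadjusted p under 0.05 in limma was reached by 2 partners, both higher, near the 5.69% of all tested probe sets. Without WT replicate 1, 28 lay higher and 22 lower. In that fit 1 of the 50, Elf4, had an unadjusted p under 0.05 in limma, as had 4.98% of all tested probe sets. The 2 with an unadjusted p under 0.05 over all 6 arrays are ETS factors, relatives of Erg and Etv6. Neither of these 2 kept it without WT replicate 1. Etv3, a repressor of this family, stood at 8.39, 8.09 and 8.85 in the arrays labelled Zeb2-KO, against 6.44, 8.44 and 6.36 in WT, a difference of 1.36 (limma adjusted p = 0.662) that was 1.04 without WT replicate 1 and 2.04 without WT replicate 2. WT replicate 2 was as high as the arrays labelled Zeb2-KO, so the groups overlapped. Gabpa, the DNA-binding subunit of GA-binding protein, stood at 8.62, 8.93 and 9.18 in the arrays labelled Zeb2-KO, against 7.47, 8.48 and 8.38 in WT, without overlap, a difference of 0.80 (limma adjusted p = 0.673) that was 0.48 without WT replicate 1. Elf4 differed by 0.61 (0.72 without WT replicate 1) and Ets1, prominent in lymphoid cells, by -0.60 (-0.43 without that array). The 11 measured ETS factors had a median of 0.24 with 8 higher (0.26, also with 8 higher, without WT replicate 1).

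The medians of the other partner lists depended more on WT replicate 1. All 5 measured genes of the LMO2, TAL1 and GATA complex list lay higher, with a median of 0.19 (0.13 without WT replicate 1). Among them were the corepressor gene Cbfa2t3 at 0.37, Tcf12 at 0.27, Gfi1b at 0.19 and Ldb1, the dimerizing cofactor that binds LMO2, at 0.18. These 4 were bright, at percentiles 79 to 94.6 of mean level. Among the 2606 probe sets at least as bright as Gata2, 74.6% lay higher, with a median of 0.27. Lmo4, the remaining gene, lay at 0.012. Without WT replicate 1 Cbfa2t3 lay at 0.26, Tcf12 at 0.13, Gfi1b at 0.079 and Ldb1 at 0.023. The MLLT3 and elongation list had a median of 0.27 with 7 of 10 higher, but of -0.037 with 4 of 10 higher without WT replicate 1, among them Cdk9, the kinase of elongation factor P-TEFb, at 0.55, the scaffold gene Aff4 at 0.47, Aff3 at 0.36 and Men1 at 0.33. Without that array these lay at 0.19, 0.26, 0.18 and 0.16. The MEIS and HOX list had a median of 0.0028 over 5 genes (-0.18 without WT replicate 1), with Hoxb4 at -0.38, Pbx3 at -0.21, Hoxa5 at 0.20 (-0.23 without that array) and Pknox1 at 0.16. Of the PAR bZIP family of Hlf, Tef lay at -0.34 and Dbp at 0.11. Nfil3, listed with them as a bZIP factor that competes for the same sites, lay at 0.52 (0.20 to 0.86 with 1 array left out). The histone deacetylases Hdac2 and Hdac1, corepressors used by MECOM, lay at 0.30 and 0.21, but at 0.0023 and -0.09 without WT replicate 1. Among 14 other stem and progenitor factors 7 lay higher and 7 lower, with Satb1, a chromatin organizer of lymphoid-primed cells, at -0.51, Hif1a at 0.45, Klf4 at -0.32 and Myc at 0.46 (0.0054 without WT replicate 1).

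**Figure D4:**
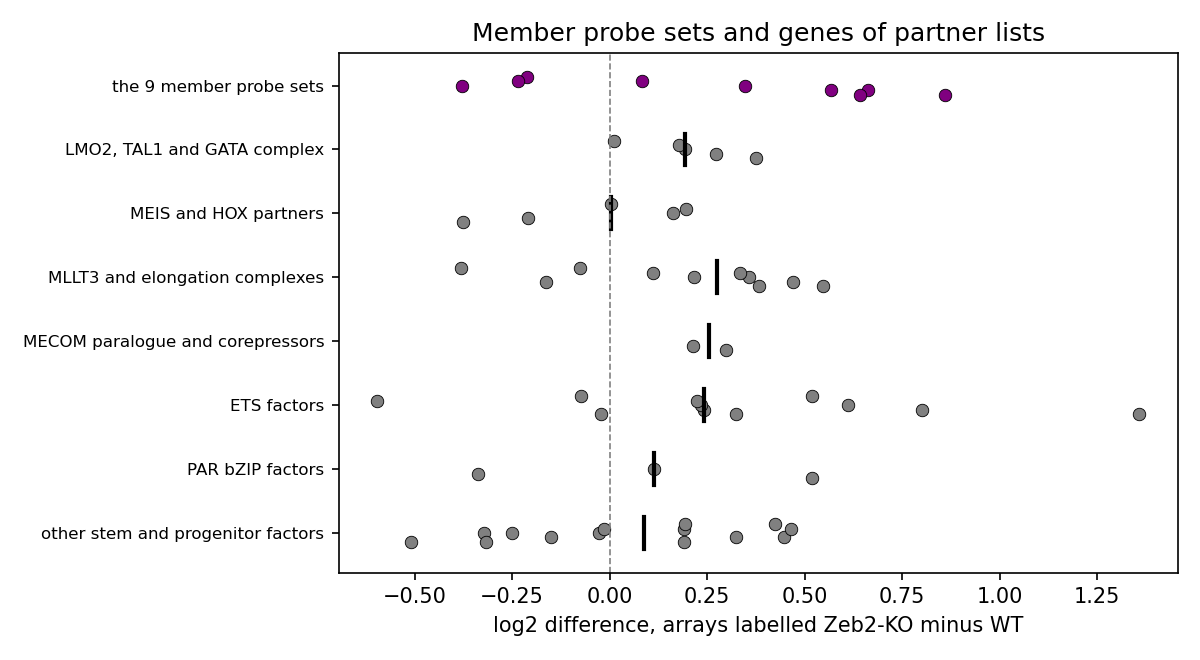
Log2 difference, arrays labelled Zeb2-KO minus WT (horizontal axis), of the 9 probe sets described here (purple) and of each measured gene of the 7 partner lists (grey, 1 probe set per gene), with black lines at the list medians. Mllt3 (0.86) lies beyond all listed partners except Etv3 (1.36).

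Markers of some neighbouring cell types moved with the groups, and their part in the differences above was not tested. In sorted bulk cells, fewer cells of a type and less RNA per cell cannot be told apart, and array values have no true 0, so no marker is at 0. Summed over its 8 measured genes, the megakaryocyte and platelet list had log2 intensities of 11.61 to 12.47 in the arrays labelled Zeb2-KO and 9.89 to 10.79 in WT, with 7 of 8 genes higher, led by the platelet chemokine genes Ppbp (3.28) and Pf4 (2.21) and by Cavin2 (1.52). The erythroid sum over 6 genes was 11.57 to 11.76 in the arrays labelled Zeb2-KO and 10.02 to 10.49 in WT, with 5 of 6 higher, Car2 at 1.72, Tfrc at 0.96 and Aqp1 at 0.76. The B lymphoid sum over 10 genes was 10.01 to 10.75 in the arrays labelled Zeb2-KO and 10.84 to 11.76 in WT, with all 10 lower (9 without WT replicate 1), Ms4a1 at -2.06, Bank1 at -1.63 and Pou2af1 at -0.87. WT replicate 1, where Mllt3, Meis1, Lmo2 and Etv6 were lowest, had the highest B lymphoid sum. The monocyte and dendritic sum over 8 genes was 11.10 to 11.60 in the arrays labelled Zeb2-KO and 11.49 to 12.15 in WT. These ranges overlapped, and 7 of 8 genes lay lower, Cd74 at -0.98, H2-Eb1 at -0.76 and Ctss at -1.12. Lyz2 lay higher, at 0.40.

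Of the remaining marker lists, the mast cell and basophil sums and the T and NK sums overlapped between groups, and the granulocyte and stromal sums did not. Sums follow the brightest genes, and the mean log2 value of the granulocyte list did overlap, at 5.82 to 6.62 for Zeb2-KO and 5.75 to 5.92 for WT. The mast cell and basophil sum, of interest for Gata2, was 7.49 to 8.22 over 4 genes in the arrays labelled Zeb2-KO and 7.51 to 7.83 in WT, with 3 of 4 lower, Prss34 at -0.42 and Mcpt8 at -0.31. Fcer1a differed by 1.07 through Zeb2-KO replicate 2 (7.50), and by 0.10 without it. The T and NK sum was 7.98 to 9.27 over 4 genes in the arrays labelled Zeb2-KO and 7.82 to 8.17 in WT, with 2 of 4 higher, Nkg7 at 1.12 (0.60 without Zeb2-KO replicate 2), Cd3e at -0.28 and Klrb1c at -0.15. The granulocyte sum was 8.69 to 10.46 over 5 genes in the arrays labelled Zeb2-KO and 8.32 to 8.55 in WT, with 3 of 5 higher, Mpo at 0.88, S100a9 at 1.42 and Ctsg at 0.25, and with Elane (-0.16) and S100a8 (-0.15) lower. S100a9 was high in Zeb2-KO replicate 1 (10.16), without which it differed by 0.42, and Mpo differed by 0.56 and Ctsg by 0.03 without Zeb2-KO replicate 3. The stromal and endothelial sum was 9.21 to 9.52 over 6 genes in the arrays labelled Zeb2-KO and 9.66 to 10.11 in WT, with all 6 lower, Sparc at -0.99 (-0.54 without WT replicate 3), Dcn at -0.60 and Col3a1 at -0.42. The stem cell gate list holds other stem and progenitor genes beside the gate genes Kit, Slamf1 and Cd48. Of its genes 4 of 8 lay higher and 4 lower (3 and 5 without WT replicate 1). Stem cells usually lack Cd48 and carry Kit and Slamf1, so these counts do not show whether the gate genes disagreed. Kit averaged 10.18 ± 0.047 for Zeb2-KO and 9.65 ± 0.57 for WT (SD, n = 3 each), and its values of 10.14, 10.17 and 10.23 in the arrays labelled Zeb2-KO lay above the 10.06 and 9.89 of WT replicates 2 and 3, with WT replicate 1 lower still, as for Meis1. The Kit difference of 0.53 was 0.21 without WT replicate 1. Slamf1 stood at 8.31, 9.01 and 8.30 in the arrays labelled Zeb2-KO, against 5.76, 8.02 and 7.94 in WT, a difference of 1.30 that was 0.56 without WT replicate 1. Cd27 differed by 0.019, and by -0.66 without that array. Flt3 differed by 0.69, Cd48 by -1.02 (-0.65 without Zeb2-KO replicate 3) and Cd34 by -0.69 (-0.20 without Zeb2-KO replicate 1). Procr, the endothelial protein C receptor of stem cells, differed by -0.45 and Fgd5 by -0.29 (-0.13 without WT replicate 1). No marker passed over all probe sets.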

How the data were processed

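Per the labels' protocols, total RNA of the sorted cells was amplified and biotin-labelled, and each marrow sample went on 1 array. The authors deposited an intensity for each probe set on each array. The submitters' processing notes name RMA (background correction, normalization, probe set summary), with no version. The deposited intensity values are linear, from 4.29 to 9972 over all arrays, so log2 was taken. Their spread still differed between arrays, with log2 interquartile ranges from 1.59 (WT replicate 1) to 2.40 (Zeb2-KO replicate 2). Of 20220 probe sets, 5610 with identifiers below the first annotated one were left out as a control block, and 14610 were tested, 11229 of them with 1 symbol in the platform annotation.

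All 6 arrays, grouped by their titles, entered 1 fit in R 4.3.3 (limma 3.58.1, lmFit and eBayes, with 4 residual and 6.87 prior degrees of freedom). P-values were adjusted by Benjamini-Hochberg over the 14610 probe sets, and 0.05 was the threshold. Differences are given as Zeb2-KO minus WT with the SE from limma. Precision is limited by 3 arrays per group. The fit was tested on simulated data.

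The genes named are the 8 regulators, Zeb2, and the 2 nearest profiles of each probe set. In each partner list up to 4 genes and in each marker list up to 3 genes with the smallest p are named. All measured genes of the stem cell gate list are named too. Eif2s3y was added after its values were seen. Genes and lists were chosen with earlier results of these data known. Lists use 1 probe set per gene, the brightest. Alternatives were a replicate block, other normalization, variance prior, array weights, filters and arrays left out. The fit without both arrays with raised Y-linked signal, and leaving arrays out for listed genes and profile distances, were chosen after seeing the data. Elane, S100a8 and Lyz2 were named after their values were seen.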

Additional observations from a re-analysis of the deposited data

How the results depend on the processing

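With array weights, whose estimation stopped before convergence and which gave Zeb2-KO replicate 3 a weight of 8.22, 1 of the 9 probe sets passed (Mllt3, 0.75, adjusted p = 0.0398), against 0 in the fit without weights. In that weighted fit 978 of all 14610 probe sets passed, and Mecom (10497590) and Hlf lay at 0.0027 and 0.0029. In every other fit 0 of the 9 passed, and 1 to 4 of them had an unadjusted p under 0.05 in limma. The 4 came without WT replicate 2, where 11.4% of all tested probe sets were under 0.05. With the replicate block (17.8% of all) and with array spread as a covariate (5.13%) there were 2. In the remaining fits there was 1, and the share of all tested probe sets ran from 3.68% to 11.2%. The median over the 8 genes was 0.17 when array spread was a covariate and 0.25 with quantile normalization. With 1 array left out it ran from 0.25 to 0.62. The dimmer Mecom probe set changed sign with quantile normalization (-0.13), without both arrays with raised Y-linked signal (-0.056) and with 1 array left out (-0.18 to 0.38). Hlf also changed sign with 1 array left out (-0.41 to 0.049). It lay at -0.42 with quantile normalization and at -0.24 without both arrays with raised Y-linked signal. With 1 array left out Meis1 ran from 0.22 to 0.95 and Etv6 from 0.28 to 0.83, lowest without WT replicate 1 and highest without WT replicate 2. The brighter Mecom probe set lay between -0.60 (Zeb2-KO replicate 3 left out) and -0.16 (WT replicate 2 left out). Gata2 ran from 0.22 to 0.45, lowest without WT replicate 3, and Erg from -0.41, without WT replicate 3, to -0.11, without WT replicate 1. The cause of these changes was not tested.

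Over all probe sets, 2 passed in the fit on 6 arrays, 0 with the replicate block, 1 with spread as a covariate, 3 with a trended prior or with the control block, and 2 to 18 with 1 array left out. An unadjusted p under 0.05 was reached by 1025 in the fit on 6 arrays, 2595 with the replicate block, 4796 with array weights and 537 to 1659 with 1 array left out. Deviations of same-numbered arrays correlated at 0.36, 0.414 and 0.0468, and each array correlated best with its own number. Raised Y-linked signal also fell on replicate 1 of both groups. The labels state no pairs and the correlation for replicate 3 was near 0, so the main fit did not take the numbers as pairs. Whether same-numbered arrays share a source was not tested. With the replicate block 0 of the 9 probe sets passed and the median stayed at 0.46. Mllt3 (adjusted p = 0.277) and Lmo2 had an unadjusted p under 0.05 in limma, at 0.0051 and 0.0359. So had 17.8% of all tested probe sets in that fit.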
